A study of Mus musculus with 8 samples.

Results

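Gene expression of 9 integrin chains that bind matrix or vessel-wall ligands was compared between the 2 main subsets of mouse blood monocytes. The chains were the alpha subunits Itga1, Itga4, Itga5, Itga6 and Itgav and the beta subunits Itgb1, Itgb3, Itgb5 and Itgb7. They were chosen by name, as all probe sets that the platform annotation gives to exactly 1 of these symbols, which found 31 probe sets for 9 of the 18193 genes named on the array. The compared cells were Ly6Clo (Gr1lo) monocytes and Ly6Chi (Gr1hi) monocytes, both sorted from the blood leukocytes of 12-week-old C57Bl/6 mice, with no treatment and no altered gene named in the labels. Each subset had 4 samples, which within a subset came from separate sorts, each of leukocytes pooled from 5 mice. The spread shown is therefore between pools and not between single mice. Whether a Ly6Clo and a Ly6Chi sample share a sort is not given in the labels. Each sample was hybridised to 1 Affymetrix mouse 3' expression array, and every signed log2 difference is Ly6Clo minus Ly6Chi.

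Integrins are paired receptors of 1 alpha and 1 beta chain that span the membrane and tie the matrix or other cells to the actin cytoskeleton. The alpha chain largely sets the ligand. Pairs of Itgb1 with Itga1, Itga5 or Itga6 are receptors for collagen, fibronectin and laminin in that order, whereas Itgav pairs with Itgb3 or Itgb5 to bind vitronectin and other proteins that carry an RGD motif. Itga4 pairs with Itgb1 to bind VCAM-1 and fibronectin, and with Itgb7 to bind MAdCAM-1, the addressin of gut vessels. Monocytes use these receptors, beside the leukocyte beta-2 integrins, to arrest on endothelium and to hold on to matrix once outside the vessel.

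The 8 arrays had median intensities between 80.5 and 82.99, and replicates of a subset correlated at 0.992 to 0.996 over all probe sets. A probe set was tested if at least 4 of its 8 intensities exceeded 81.9, the median of the table, and was called where limma's adjusted p (Benjamini-Hochberg) was under 0.05. Of 7 measured genes common to monocytes, such as Csf1r and Lyz2, 4 were called toward Ly6Clo and 2 toward Ly6Chi, and the lowest summed intensity was 49253 in Ly6Clo arrays and 49038 in Ly6Chi arrays. All 9 measured Ly6Clo markers were called higher in Ly6Clo and all 5 measured Ly6Chi markers higher in Ly6Chi. These lists were chosen with earlier results of these data known, so the calls are no independent check of the sort. Vcan, 1 of the 5, passed the filter through Ly6Chi alone and had to differ. Itgal and Itgax are also counted below among the other integrin chains, and Fn1 among the ligands. In bulk RNA of a sorted subset, fewer cells that express a gene and less RNA per cell cannot be told apart.

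Ly6Clo monocytes held more RNA of Itgb1, Itgav, Itgb5 and Itga4, and Ly6Chi monocytes held more of Itga1, Itgb7 and Itga5. The differences were 2.09-fold for Itgb1, 1.74-fold for Itgav and 1.68-fold for Itgb5 toward Ly6Clo, and at least 2.16-fold for Itga1 and 1.72-fold for Itgb7 toward Ly6Chi. Itga6 and Itgb3 were not called. Taking the brightest tested probe set of each gene, 7 of the 9 chains were called, 4 toward Ly6Clo and 3 toward Ly6Chi, where 32.5% of all 11546 tested genes were called (14.1% toward Ly6Clo and 18.5% toward Ly6Chi). Called differences of at least 2-fold were found for 2 chains, Itgb1 and Itga1, against 3.88% of all tested genes. The median log2 difference over the 9 chains was 0.28 beside -0.01 over all tested genes, and the median size without sign was 0.75 beside 0.13. Over probe sets, 18 of the 21 tested were called, 14 toward Ly6Clo and 4 toward Ly6Chi, against 31.1% of all 22831 tested probe sets (15.2% toward Ly6Clo and 15.9% toward Ly6Chi). The same number, 18 of 21, had no overlap between the subsets' arrays, against 31.8% of all tested probe sets. The tested probe set of Itga1 is in all of these counts and medians. It passed the filter through Ly6Chi alone, so its subsets had to be apart and it adds no evidence to the counts. The other 10 of the 31 probe sets lay under the table median in every array and were not tested, so these counts describe the brighter probe sets. Probe sets of 1 gene share transcripts and are not separate evidence.

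**Figure D1:**
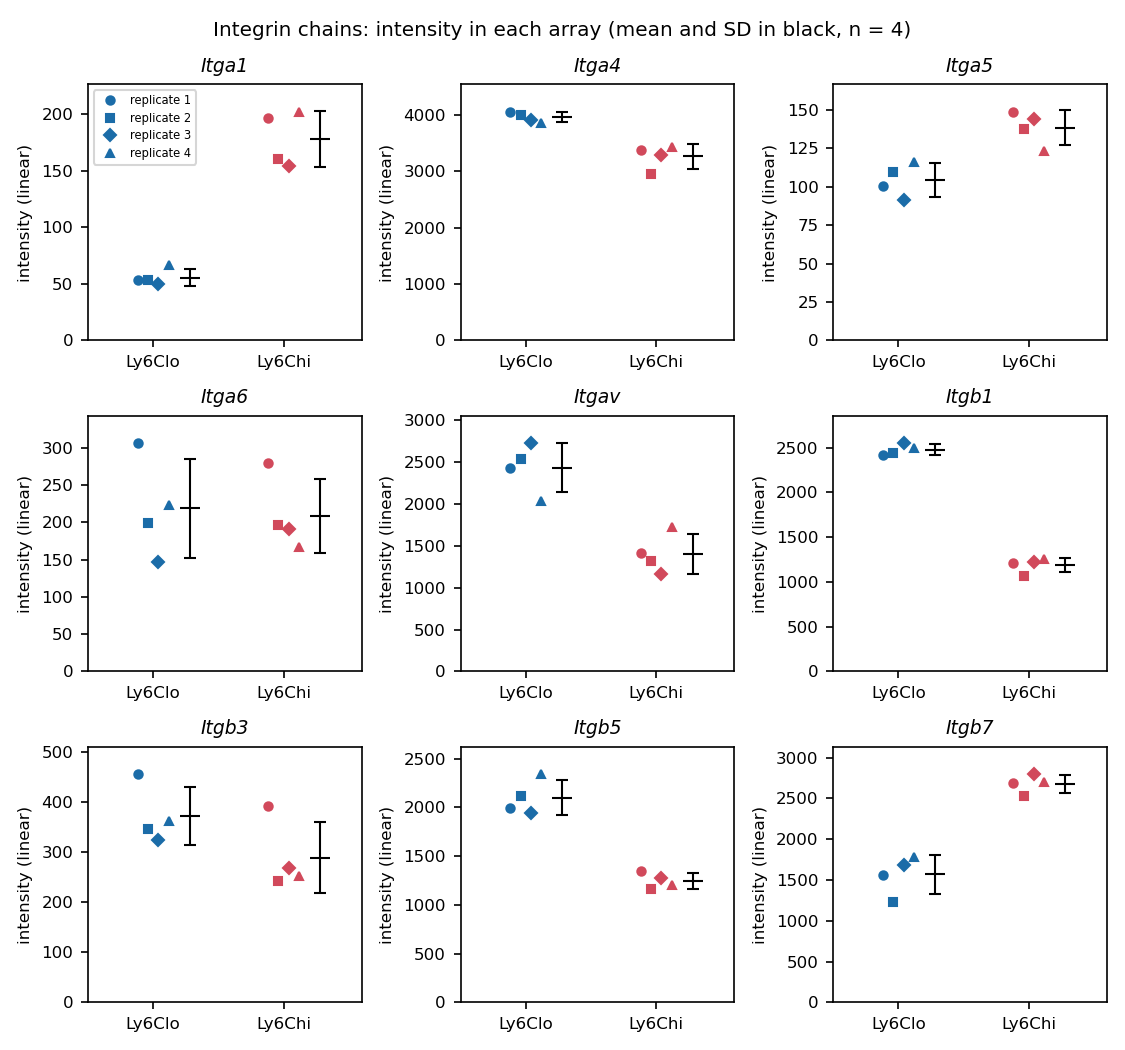
Linear intensity of the brightest tested probe set of each integrin chain in the 4 Ly6Clo arrays (left, blue) and the 4 Ly6Chi arrays (right, red), with a marker for each replicate number and the mean and SD in black. The subsets are apart for every chain except Itga6 and Itgb3, where replicate 1 is the highest array of both subsets.

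Itgb1 (CD29), the shared beta chain of the collagen, fibronectin and laminin receptors, had intensities of 2424, 2441, 2554 and 2501 in Ly6Clo arrays, against 1209, 1070.4, 1226 and 1257 in Ly6Chi arrays. Every Ly6Clo array lay far above every Ly6Chi array, and the Ly6Clo values were close together. The log2 difference was 1.06 (SE 0.07, limma adjusted p = 3.6e-07), a 2.09-fold difference. The other 2 tested probe sets of Itgb1 gave 1.17 and 0.75, both called. Of its 3 dim probe sets, 1 (1426920_x_at) had values from 50.5 to 61.8 in Ly6Clo and from 38.8 to 48.7 in Ly6Chi, apart like the bright ones but under the table median.

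Itgb5, which pairs with Itgav, had intensities of 1998, 2117, 1939 and 2343 in Ly6Clo arrays, against 1343, 1165, 1273 and 1199.5 in Ly6Chi arrays. The subsets did not overlap, and the lowest Ly6Clo value was still above the highest Ly6Chi value on all 4 Itgb5 probe sets. The log2 difference of this brightest probe set was 0.75 (SE 0.08, adjusted p = 1.6e-05), and the other 3 gave 0.88 to 0.93. The brightest set has the suffix that marks possible matches to other transcripts, and 1417534_at, which has no such suffix, gave 0.88 (SE 0.09, adjusted p = 1.3e-05).

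Itgav (CD51), the alpha chain of the vitronectin receptors, had intensities of 2434, 2539, 2731 and 2033 in Ly6Clo arrays, against 1419, 1319, 1165 and 1730.0 in Ly6Chi arrays. Replicate 4 was the lowest Ly6Clo array and the highest Ly6Chi array, and the subsets were still apart. The log2 difference was 0.80 (SE 0.12, adjusted p = 3.7e-04). Its 3 tested probe sets agreed in direction but not in size, with 1.03 at 1421198_at and 0.40 at 1432296_a_at. On the first of these the values were 431, 501, 547 and 364 in Ly6Clo against 218, 197, 190.3 and 308 in Ly6Chi, so replicate 4 again brought the subsets closest. Of the alpha-v pairs, both chains of alpha-v beta-5 were therefore higher in Ly6Clo, while the beta-3 partner was not called.

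Itga4 (CD49d), which binds VCAM-1 on activated endothelium, had intensities of 4049, 3998, 3909 and 3854 in Ly6Clo arrays, against 3373, 2950.3, 3289 and 3428 in Ly6Chi arrays. The subsets did not overlap, but the step was small, with a log2 difference of 0.28 (SE 0.07, adjusted p = 0.0062) or 1.21-fold. The other 3 tested probe sets gave 0.26 to 0.46 and were called. The weakest of them, 1450155_at (0.26, adjusted p = 0.042), had 358, 389, 361 and 369.7 in Ly6Clo and 312, 259, 333 and 339.6 in Ly6Chi, and its call was lost when any 1 of 6 of the 8 arrays was left out (adjusted p = 0.064 to 0.10).

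Itga1 (CD49a), the collagen-binding alpha chain, had intensities of 53.0, 53.1, 49.8 and 66.2 in Ly6Clo arrays, against 196, 159.9, 154 and 202 in Ly6Chi arrays. All Ly6Chi arrays lay over the table median and no Ly6Clo array did, so this probe set passed the filter through Ly6Chi alone and had to differ. With Ly6Clo set at the table median, the difference was at least 2.16-fold toward Ly6Chi. The fitted log2 difference of -1.68 (SE 0.11, adjusted p = 5.6e-07) rests on Ly6Clo values below that median and has no rank among the chains. Its second probe set was dim in all arrays, with 27.0 to 32.3 in Ly6Clo and 47.7 to 59.3 in Ly6Chi.

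Itgb7, the gut-homing partner of Itga4, is measured by 1 probe set, which had intensities of 1567, 1236, 1686 and 1782 in Ly6Clo arrays, against 2687, 2529, 2799 and 2701 in Ly6Chi arrays. Every Ly6Clo array was below every Ly6Chi array, and the Ly6Clo values were the more spread (SD 0.23 against 0.06 on the log2 scale). The log2 difference was -0.79 (SE 0.10, adjusted p = 1.2e-04). The partners of Itga4 thus ran in opposite directions, Itgb1 higher in Ly6Clo and Itgb7 higher in Ly6Chi.

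Itga5 (CD49e), the fibronectin-specific alpha chain, had intensities of 101, 109.8, 91.2 and 116 in Ly6Clo arrays, against 149, 138, 144 and 123 in Ly6Chi arrays. These values are little above the table median, yet the subsets did not overlap, with a log2 difference of -0.41 (SE 0.09, adjusted p = 0.0041). A second tested probe set had 1 of 4 Ly6Clo arrays and 4 of 4 Ly6Chi arrays over the table median, so its Ly6Chi arrays alone met the filter. Its Ly6Clo mean lay just under that median, and the difference was at least 1.24-fold toward Ly6Chi. The fitted value of this probe set was -0.32 (SE 0.08, limma adjusted p = 0.010). The remaining 2 were dim, from 32.9 to 66.9 over both subsets, and overlapped. Itga5 thus ran opposite to its beta partner Itgb1.

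**Figure D2:**
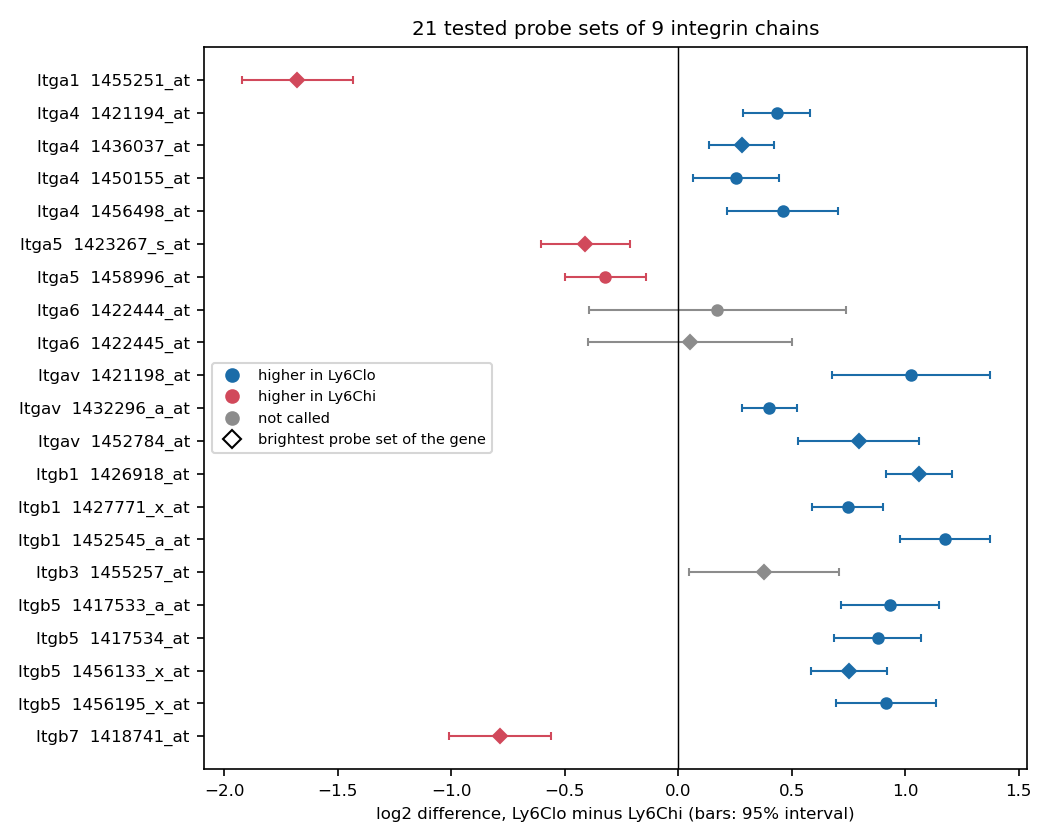
Log2 difference (Ly6Clo minus Ly6Chi) of the 21 tested probe sets of the 9 chains, with 95% intervals as bars; colour gives the call and diamonds mark the brightest probe set of each gene. All tested probe sets of Itga4, Itgav, Itgb1 and Itgb5 lie to the right of 0, those of Itga1, Itga5 and Itgb7 to the left, and the intervals of Itga6 span 0.

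At their brightest probe set, Itgb1 and Itgav differed most toward Ly6Clo. Itga1 (by its lower bound of 2.16-fold) and Itgb7 (1.72-fold) differed most toward Ly6Chi. Their promoters are shown because these genes moved in opposite groups. Each runs 5' to 3' from 250 bases before the annotated start over 300 bases (RefSeq, GRCm38.p6), with capitals at the motifs searched on both strands.
Itgb1 promoter, chr8:128685404-128685703, plus strand: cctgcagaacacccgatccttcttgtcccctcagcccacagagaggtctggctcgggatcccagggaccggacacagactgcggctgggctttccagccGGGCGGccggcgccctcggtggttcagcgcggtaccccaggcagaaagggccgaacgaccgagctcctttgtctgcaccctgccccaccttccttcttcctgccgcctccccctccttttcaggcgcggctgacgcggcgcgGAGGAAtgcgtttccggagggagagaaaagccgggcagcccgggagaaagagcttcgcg
Itgav promoter, chr2:83724147-83724446, plus strand: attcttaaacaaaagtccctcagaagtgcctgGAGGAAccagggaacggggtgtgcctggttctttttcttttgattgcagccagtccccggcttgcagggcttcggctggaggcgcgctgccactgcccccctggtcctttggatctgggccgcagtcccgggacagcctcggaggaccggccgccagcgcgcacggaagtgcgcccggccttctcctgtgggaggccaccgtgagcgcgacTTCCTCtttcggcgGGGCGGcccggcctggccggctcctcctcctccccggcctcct
Itga1 promoter, chr13:115101915-115102214, minus strand: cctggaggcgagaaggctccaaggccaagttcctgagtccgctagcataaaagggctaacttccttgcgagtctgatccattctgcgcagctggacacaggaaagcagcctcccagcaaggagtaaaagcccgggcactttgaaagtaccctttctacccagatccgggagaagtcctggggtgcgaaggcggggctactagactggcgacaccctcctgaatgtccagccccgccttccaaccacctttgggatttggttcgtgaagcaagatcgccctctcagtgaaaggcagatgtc
Itgb7 promoter, chr15:102231886-102232185, minus strand: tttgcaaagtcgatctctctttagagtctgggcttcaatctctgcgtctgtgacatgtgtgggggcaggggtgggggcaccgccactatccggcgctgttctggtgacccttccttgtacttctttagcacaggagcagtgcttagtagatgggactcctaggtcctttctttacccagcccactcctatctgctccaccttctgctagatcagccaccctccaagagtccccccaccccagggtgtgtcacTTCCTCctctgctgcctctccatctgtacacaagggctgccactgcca
The motifs were the GC box GGGCGG, which Sp and Krüppel-like factors bind, the PU.1 and ETS core GAGGAA, the RUNX motif TGTGGT and the AP-1 motif TGANTCA, and none overlapped another in these 4 windows. The GC box was present once in Itgb1 and once in Itgav and was not matched in Itga1 or Itgb7, and 35.7% of 32851 promoters of this length hold it. The PU.1 and ETS core was matched in Itgb1, Itgav and Itgb7 and not in Itga1, and 28.3% of all promoters hold it. The RUNX motif (16.8% of promoters) and the AP-1 motif (7.81%) were matched in none of these 4 windows. Itga1 and Itgb7 had 56.7% and 56.3% G and C, below the 67.3% of both Itgb1 and Itgav, and the median of all promoters was 52.7%. Of the 3 other chains in the promoter table, Itgb5 held 3 GC boxes, Itga4 held 1, and Itga5, which was higher in Ly6Chi, held 2. With so few windows these are descriptions of the letters and no test was made.

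Itga6 and Itgb3, which are abundant in platelets as laminin receptor chain and as partner of Itga2b, were not called. Itga6 (CD49f) had intensities of 307, 199, 147 and 223 in Ly6Clo arrays, against 279.7, 196, 191 and 167 in Ly6Chi arrays. The subsets overlapped fully, and the log2 difference was 0.05 with a 95% interval from -0.40 to 0.50 (adjusted p = 0.89). Its second probe set spread alike, with 209, 133, 90.3 and 139 in Ly6Clo and 179, 127, 119 and 79.6 in Ly6Chi. The sign of the Itga6 difference turned without Ly6Clo replicate 1 (-0.13, adjusted p = 0.67) or without Ly6Chi replicate 4 (-0.047, adjusted p = 0.91).

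Itgb3 (CD61) had intensities of 456, 346, 324 and 363 in Ly6Clo arrays, against 393, 242, 269 and 253 in Ly6Chi arrays. The overlap came from Ly6Chi replicate 1 alone, which lay above 3 of the 4 Ly6Clo arrays. The log2 difference was 0.38 (95% interval 0.05 to 0.71, adjusted p = 0.079), and the call depended on the setting. With array weights it was 0.46 and called (adjusted p = 0.025). Without Ly6Chi replicate 1 it was 0.54 and called (adjusted p = 0.0038), and without both samples numbered 1, a choice made after seeing the data, it was 0.43 and called (SE 0.08, adjusted p = 0.0031). The second probe set of Itgb3 was under the table median in all arrays, from 69.3 to 76.7 in Ly6Clo and from 59.3 to 67.2 in Ly6Chi, with no overlap.

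Platelet RNA was present in all arrays and differed between replicates. The summed intensity of 12 measured platelet genes was 7681, 4384, 2968 and 4933 in Ly6Clo arrays, against 6088, 3684, 3844 and 2693 in Ly6Chi arrays. Replicate 1 was the highest of both subsets for this sum, for Itga6 and for Itgb3. Within Ly6Clo all of these fell in the same order of arrays. Within Ly6Chi the sum, Itga6 and Itgb3 each had a different order below replicate 1. All 12 passed the filter, none is at 0, and 11 were not called between the subsets. P2ry12 was called higher in Ly6Chi, so 8.33% of the list was called beside 32.5% of all tested genes. The list median was 0.18 on the log2 scale, toward Ly6Clo, beside -0.01 over all tested genes. Replicates were spread, with an SE of 0.31 for Pf4 and 0.35 for Ppbp against a median of 0.08 over tested probe sets. A low share of calls therefore does not show equal platelet RNA in the subsets. Pf4, a platelet granule chemokine, had 1651, 899.6, 579 and 1013 in Ly6Clo against 1256, 720.1, 806 and 498 in Ly6Chi. Itga2b, the platelet partner of Itgb3, had 487, 315, 259.5 and 354 in Ly6Clo against 435, 276, 323 and 252 in Ly6Chi. The part of platelet RNA in the values of Itga6, Itgb3 and the called chains was not tested. Leaving out both samples numbered 1 does not remove platelet RNA. The platelet sums of the other arrays were 2968 to 4933 in Ly6Clo and 2693 to 3844 in Ly6Chi. The 7 called chains kept their calls at the brightest probe set without both samples numbered 1, where Itgb1 differed by 1.08, Itgav and Itgb5 by 0.80 and 0.81, Itga4 by 0.29, Itgb7 by -0.79 and Itga5 by -0.36. Itga1, for which only a lower bound holds, was called there too. Of the 18 called probe sets, 16 kept their call and 2 of Itga4 lost it (adjusted p = 0.055 and 0.095).

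**Figure D3:**
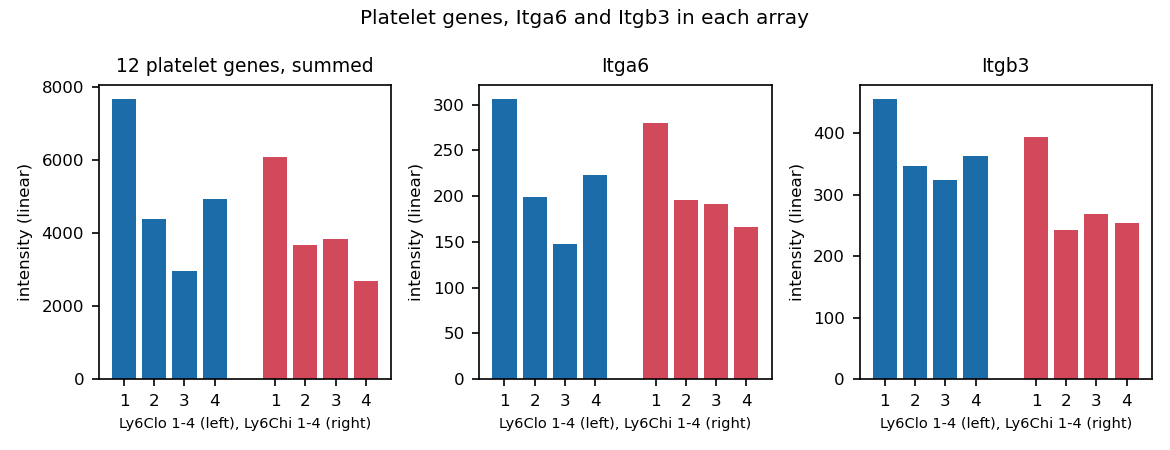
Linear intensity in each array, Ly6Clo replicates 1 to 4 on the left (blue) and Ly6Chi replicates 1 to 4 on the right (red), for the sum of 12 platelet genes, Itga6 and Itgb3, with bars from 0. Replicate 1 is the highest bar of each subset in all panels.

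Markers of lymphocytes and granulocytes were measured because such cells also carry Itga1, Itga4 and Itgb7. Of 5 tested B cell genes, none was called toward Ly6Clo, Ms4a1 and Cd79a were called toward Ly6Chi, and the sum of 8 measured genes ranged from 685 to 1001 in Ly6Clo and from 919.7 to 1366 in Ly6Chi. Of 5 tested NK cell genes, Klrd1 and Gzma were called toward Ly6Clo and none toward Ly6Chi, with sums of 8 genes from 1220.4 to 1514 in Ly6Clo and from 897 to 1047 in Ly6Chi. None of 6 tested T cell genes was called by limma (1 toward Ly6Clo and 0 toward Ly6Chi at an unadjusted p under 0.05), with sums from 1061 to 1224 in Ly6Clo and from 1033 to 1148 in Ly6Chi. Of 10 eosinophil, basophil and mast cell genes, 9 did not pass the filter and Gata2 was not called (0 at an unadjusted p under 0.05). The neutrophil list had none of 9 tested genes called toward Ly6Clo and 4 called toward Ly6Chi, with sums from 1554 to 1909 in Ly6Clo and from 2311 to 2878 in Ly6Chi. The opposite count at an unadjusted p under 0.05 was 0 as well for the B cell, NK cell and neutrophil lists. Of 6 tested dendritic cell genes, 1 was called toward Ly6Clo and 2 toward Ly6Chi, with sums from 2071 to 2474 in Ly6Clo and from 2117 to 2452 in Ly6Chi. The shares called were 40% of B cell and of NK cell genes, 44.4% of neutrophil and 50% of dendritic cell genes tested. Over all tested genes 32.5% were called (14.1% toward Ly6Clo and 18.5% toward Ly6Chi). Lcn2, 1 of the 4 neutrophil calls, passed the filter through Ly6Chi alone and had to differ. Of the 4 Ly6Clo arrays, 1 lay over the table median for Ms4a1, for Cd79a and for S100a8, another neutrophil call. The part of RNA from any of these cell types in the values of the integrin chains was not tested.

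A list on the switch of integrins to their high-affinity state held genes that drive it and genes that oppose it through Rap1 or Ras family proteins (Rap1gap, Rap1gap2, Sipa1, Rasa3 and Arap3). Of 18 tested, 10 were called by limma toward Ly6Clo and none toward Ly6Chi (11 and 0 at an unadjusted p under 0.05), that is 55.6% beside 32.5% of all tested genes (14.1% toward Ly6Clo and 18.5% toward Ly6Chi), with a median log2 difference of 0.27 beside -0.01 over all tested genes. Rassf5 (RAPL), a Rap1 effector, had 3983, 4003, 4209 and 4015 in Ly6Clo against 2403, 2446, 2403 and 2613 in Ly6Chi, a log2 difference of 0.72 (SE 0.06, adjusted p = 2.9e-06). Rap1gap2, an inhibitor of Rap1, showed the largest difference of the list at 1.35 (SE 0.09, adjusted p = 6.3e-07). Named after their values were seen, the talin gene Tln1 differed by 0.30 (adjusted p = 0.012), and Fermt3, the kindlin of blood cells, by 0.01 (adjusted p = 0.91).

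Genes that restrain or traffic integrins were divided, with 3 of 14 tested called toward Ly6Clo and 3 toward Ly6Chi (42.9% beside 32.5% of all tested genes, median -0.04). Toward Ly6Clo were the actin regulator Eps8 (0.82), the adaptor Dok1 (0.72), which competes with talin for beta tails, and filamin A, Flna (0.46, named after its value was seen). Toward Ly6Chi were Ndrg1 (-2.26), the tensin Tns3 (-0.82) and Itgb1bp1 (-0.35, adjusted p = 0.011, named after its value was seen), whose product ICAP-1 binds the tail of Itgb1. Itgb1bp1 had 359.7, 291, 296 and 341 in Ly6Clo against 419, 418, 439.6 and 359 in Ly6Chi, so it ran opposite to Itgb1 with a slight overlap of arrays.

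The adhesion complex and its signalling genes were called in 21 of 32 tested, 12 toward Ly6Clo and 9 toward Ly6Chi (65.6% beside 32.5% of all tested genes), with a median of -0.002 on the log2 scale. The Src family kinase Fyn had 1304, 1644, 1361 and 1321 in Ly6Clo against 306, 271, 264 and 281 in Ly6Chi (log2 difference 2.32, SE 0.09, adjusted p = 6.8e-09). The parvins, which join integrin-linked kinase to actin, were split, with the blood cell form Parvg at 0.97 and Parvb at -0.67. The exchange factor Arhgef6 was higher in Ly6Chi (-0.60). Without both samples numbered 1 the count of calls in this list was 17.

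Membrane proteins known to associate with integrins were called toward Ly6Clo for 5 of 15 tested and toward Ly6Chi for 2 (46.7% beside 32.5% of all tested genes, median 0.15). The transglutaminase Tgm2, a coreceptor of beta-1 and beta-3 chains for fibronectin, differed by 3.64 and the tetraspanin Cd9 by 2.81. Cd82, Cd81 and Cd47, named after their values were seen, differed by 2.39, 2.38 and 0.28. Cd9 is also abundant in platelets, and it had 3855, 3538, 3275 and 3315 in Ly6Clo against 824, 468, 444 and 363 in Ly6Chi, highest in replicate 1 of both subsets. The metalloproteinases Adam15 (-0.64) and Adam8 (-0.51) were higher in Ly6Chi.

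Among ligands of these receptors, 3 of 15 tested were called toward Ly6Clo and 2 toward Ly6Chi (median -0.08), 33.3% beside 32.5% of all tested genes, and 16 of the 31 on the array did not pass the filter, Madcam1 among them. Fn1, the fibronectin bound by alpha-5 beta-1 and alpha-4 beta-1, had 649, 596, 534 and 479.5 in Ly6Clo against 13050, 12204, 12655 and 12726 in Ly6Chi. It was thus higher in Ly6Chi (log2 difference -4.50), as Itga5 was, and opposite to Itga4 and Itgb1. Mfge8, an RGD protein bound by alpha-v chains, differed by -0.46, whereas Vwf, also a platelet product, differed by 1.33 and was highest in replicate 1 of both subsets (343 in Ly6Clo and 198 in Ly6Chi), and the collagen chain Col4a2 by at least 1.62-fold toward Ly6Clo. Col4a2 passed the filter through Ly6Clo alone, so its subsets had to be apart and it adds no evidence to the count of ligands called. Col4a1, named after its value was seen, differed by 0.33. Vcam1, the ligand of alpha-4 beta-1, differed by -0.08 (adjusted p = 0.56).

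Of 16 other integrin chains on the array, 9 were tested and 3 were called, all higher in Ly6Clo (median 0.13), a share of 33.3% that is near the 32.5% of all tested genes. These were Itgax (3.67), Itgal (1.18) and, named after its value was seen, their beta-2 partner Itgb2 (0.56). Itga2, which also binds collagen, and Itgb4, Itgb6 and Itgb8 did not pass the filter. None of these 9 was called toward Ly6Chi by limma, and Itga8, picked out after its value was seen, came nearest at -0.38 (adjusted p = 0.067) and was the 1 chain toward Ly6Chi at an unadjusted p under 0.05.

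**Figure D4:**
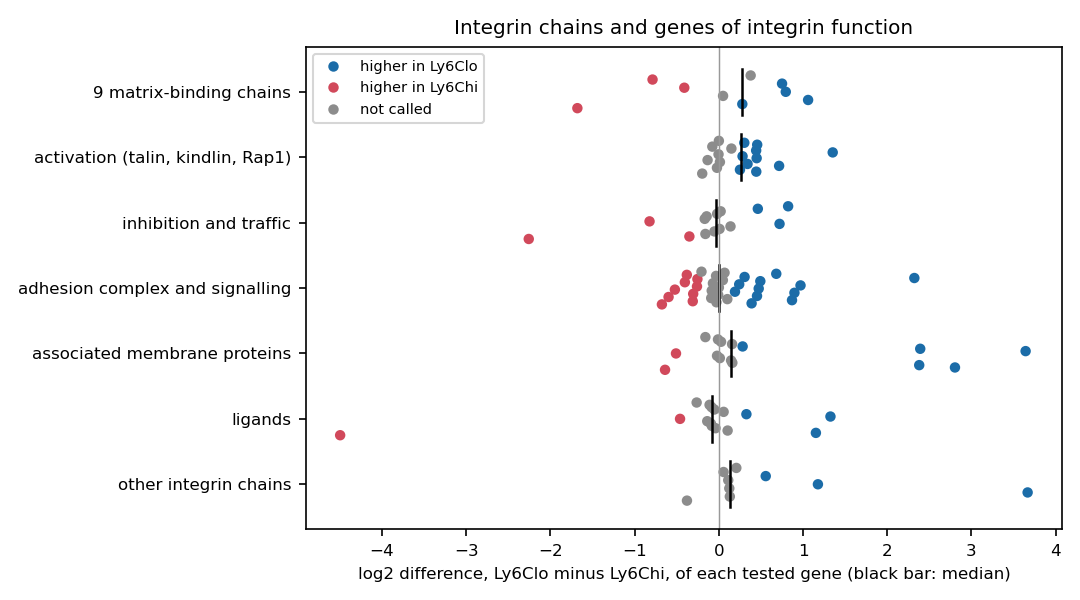
Log2 difference (Ly6Clo minus Ly6Chi) of each tested gene, in rows for the 9 matrix-binding chains and 6 lists of genes of integrin function, coloured by call, with a black bar at each median. The activation row has called genes on the right side only, with a median of 0.27, whereas the adhesion complex row is spread to both sides around -0.002.

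The genes whose arrays were most like the Itgb1 probe set with the largest difference (1452545_a_at) were Rap1gap2 (Pearson r = 0.996), the adhesion receptor Adgre4 (r = 0.996) and the calcium channel Ryr1 (r = 0.994), over 8 arrays and 11546 genes. For Itga1 they were Tbc1d22a (r = 0.995), the mitochondrial kinase Pink1 (r = 0.995) and Cdadc1 (r = 0.994). Itga1 was taken by its fitted difference, and its Ly6Clo values (49.8 to 66.2) lay under the table median, so these correlations rest partly on dim signal. The 8 arrays fall into 2 subsets, so these values mainly restate a clean difference between subsets, and no test is attached.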

How the data were processed

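Sorted Ly6Clo and Ly6Chi monocytes (4 samples each) were measured on Affymetrix mouse 3' arrays. Per the labels' protocols, the in vitro transcription step took 64 h in place of 4 h, which can alter 3' to 5' balance and the size of ratios. The deposited values were linear probe set intensities processed by the authors. GCRMA and MAS5 appear in the submitters' processing notes without role or order, and which of them gave these values is not given in the sources used here; array medians were nearly equal. Of 45101 probe sets, 64 controls were dropped. In the platform annotation, 34945 probe sets had 1 symbol, 932 had several and 9160 are unnamed here. All 31 integrin probe sets matched a mouse gene table by Entrez identifier. A gene was represented by its tested probe set with the highest mean.

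Log2 intensities, without a pseudocount, were compared by limma 3.58.1 under R 4.3.3 (lmFit and eBayes, no block, two-sided, adjusted over all 22831 tested probe sets). A subset whose mean was under the table median (81.9), used since no detection calls were at hand, was set at that median, and the fold is then a lower bound. Arrays give no read depth, and their number limits the precision; the median SE of a difference was 0.08 (log2). The fit was tested on simulated data. The 9 chains, 6 pathway lists and 10 cell type lists were chosen with earlier results of these data known. Named were all chains and the 2 called genes with the largest difference in each direction of a pathway list. Also named were the 3 genes most correlated with the chain of largest fitted difference in each direction. Alternatives were a replicate block, each array left out, other filters, normalizations, variance models, probe set choices, a pseudocount of 32 and a threshold of 0.01; leaving out both samples numbered 1 was added after seeing the data.

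The subsets share replicate numbers, but the labels do not say that a number marks a shared sort, and same-numbered samples did not all deviate together from their subset means.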

Additional observations from a re-analysis of the deposited data

Results flagged for a closer look

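In 62 groups of 4 arrays (31 probe sets in 2 subsets), the sample farthest from the other 3 stood apart by Dixon's criterion in 3, where chance gives about 1 in 20. For Itga4 at 1456498_at, Ly6Clo replicate 4 was low at 503, against 609.8 to 618 in the other Ly6Clo arrays, and still above all Ly6Chi arrays. For Itga5 at 1458996_at, Ly6Chi replicate 4 was high at 115.0, against 96.3 to 97.4 in the other Ly6Chi arrays. For Itgav at 1432679_at, which was not tested, Ly6Clo replicate 3 was low at 42.2, against 52.1 to 52.5 in the other Ly6Clo arrays.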

How the results depend on the processing

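Under 19 alternatives the count of called integrin probe sets ranged from 16 to 19 (18 as reported), with 13 to 15 higher in Ly6Clo and 3 to 5 higher in Ly6Chi. The 7 called chains kept direction and call in all 21 alternatives run for single genes. Some of these could not change the difference. The replicate block, the other filters, the variance model with an intensity trend and the 0.01 threshold left it the same for every chain. Direction was fixed in those, and only the call could change. Itga1 and Itgb7 have 1 tested probe set each, and leaving out cross-matching probe sets kept the same probe set for Itga4, Itgav and Itgb1. Itga6 changed sign without Ly6Clo replicate 1 (-0.13) and without Ly6Chi replicate 4 (-0.047), uncalled in both, with a range of -0.13 to 0.23 when each array was left out in turn. Itgb3 became called without Ly6Chi replicate 1 (0.54), with array weights (0.46, adjusted p = 0.025), without both samples numbered 1 (0.43) and with the block below, with adjusted p from 0.0031 to 0.21 over its alternatives; the cause was not tested. At a threshold of 0.01, 2290 probe sets were called higher in Ly6Clo against 3472, since the threshold itself is stricter. With no filter, 2 of the 10 dim probe sets were called, those of Itga1 (1439713_at, -0.78) and Itgb1 (1426920_x_at, 0.44). No pathway list count moved by more than 1.5 times.

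With the replicate number as a block, 7164 probe sets were called against 7108, 18 integrin probe sets were again called, Itgb3 was called at 0.38 (adjusted p = 0.0041) and Itga4 at 1450155_at was not (adjusted p = 0.053). Deviations of same-numbered samples correlated at 0.27, 0.34, -0.029 and -0.10 for numbers 1 to 4, and Ly6Clo replicate 3 correlated best with Ly6Chi replicate 4 (0.55) and Ly6Clo replicate 4 with Ly6Chi replicate 3 (0.30), so the numbers were not taken as pairs; whether samples of different number share a sort cannot be told from the labels. Dim signal limits the 10 untested probe sets and the lower bounds for Itga1 and for the second tested probe set of Itga5, since no detection calls were used here.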
